A study of Mus musculus with 4 samples.

Results

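The tripartite motif (TRIM) family and Pml, the founding gene of the same protein class, were followed in single-cell RNA-seq libraries of mouse pancreatic tumours from the KPC46 organoid line. Members were taken by symbol (Trim followed by a number and at most 1 letter, or Pml), leaving out Trim28 and every gene with fewer than 20 unique molecular identifiers (UMIs, the counted RNA molecules) over the 4 libraries. This left 45 members of 68 matching symbols, among 32285 genes in the tables. The 45 members held 81727 UMIs, 0.0569% of all UMIs, with a median of 760 UMIs a gene and a range from 23 (Trim15) to 9289 (Trim44).

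Tumours came from 4 B6/129 F1J mice, 2 given the vehicle Cremophor and 2 given TAK-981 (subasumstat), which inhibits the enzyme that activates the small ubiquitin-like modifier SUMO. All 4 mice carried tumours of 1 organoid line, so the tumour cells share 1 origin, and the labels give neither dose, duration, age nor the alleles behind the name KPC. Each library is 1 tumour of 1 mouse, and the mouse was the replicate (n = 2 a group). The libraries are called vehicle 1, vehicle 2, TAK-981 1 and TAK-981 2.

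TRIM proteins share a RING finger, B-boxes and a coiled coil, and most are E3 ubiquitin ligases. Many are induced by interferon and act in antiviral sensing, and in the mouse the genes related to Trim5 have multiplied into a row of close copies on chromosome 7 that includes Trim12a, Trim12c and Trim30a to Trim30d. PML is itself a major SUMO substrate: its SUMO chains hold together the nuclear bodies that bear its name.

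Libraries held between 24411656 and 63898758 UMIs, with TAK-981 2 the deepest. Filtering left 4408, 4130, 2214 and 3110 cells in that library order, at median depths of 2269, 4152.5, 5024.5 and 12831 UMIs. Cells were clustered and classes named from marker genes. Epithelial-like cells numbered 1000, 1951, 1014 and 1945 in the order given above, macrophage-like cells 1336, 708, 732 and 508, fibroblast-like cells 105, 229, 76 and 104, and neutrophil-like cells 758, 461, 44 and 103. Libraries shared between 1 and 10 cell barcodes. Most epithelial-like cells fell in clusters that expressed 3 to 5 of the 8 epithelial markers, and different clusters held most of the class in the groups. Cluster 4 (led by Prl, S100a6 and S100a4) held 1511 of the cells of vehicle 2, cluster 3 (histone genes and Top2a) 436 of vehicle 1, cluster 5 (Hspb1, Cxcl5 and Pgf) 972 of TAK-981 2, cluster 21 (Tff2, Tff1 and Gkn2) 369 of TAK-981 2 and cluster 16 (Hp, Ttr and Ambp) 250 of TAK-981 1. Cluster 13, led by mitochondrial and other genes at low depth, held 434 cells of TAK-981 1.

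Promoter windows were read first, since both members that rose in epithelial-like cells hold an interferon element in them. The windows are RefSeq's for build GRCm38.p6 and run from 250 bases before to 50 bases after an annotated start, and 35 of the 45 members had at least 1. They were searched on both strands for the core of the interferon-stimulated response element (ISRE), written GAAANNGAAA or TTTCNNTTTC, to which interferon-activated factors can bind. The core was present in 9 of the 35 members (25.7%) and in 10 of their 48 windows (20.8%), and in 3.44% of all 32851 windows. Of the 9 chromosome 7 cluster members 6 held it (Trim5, Trim12a, Trim12c, Trim30a, Trim30d and Trim34a), and outside the cluster Trim2, Trim21 and Trim26 did. The searched windows of Trim30b and Trim30c held no match. For Trim30b the only window (104358597 to 104358896) lies inside the gene (104355382 to 104369884, minus strand). The 5′ end of the Trim30b gene as annotated was therefore not searched. A second motif, the interferon-gamma activated site (TTCNNNGAA), was found in windows of 4 members and in 8.30% of all windows. Each window below is written 5′ to 3′ on the gene's strand with the ISRE core in capitals, and a match is a description of the sequence and not a binding site. Trim30a and Trim12c are shown because they rose in epithelial-like cells, and the others because they were high under TAK-981 in 1 or more classes:
Trim30a, chr7:104465144-104465443, minus strand: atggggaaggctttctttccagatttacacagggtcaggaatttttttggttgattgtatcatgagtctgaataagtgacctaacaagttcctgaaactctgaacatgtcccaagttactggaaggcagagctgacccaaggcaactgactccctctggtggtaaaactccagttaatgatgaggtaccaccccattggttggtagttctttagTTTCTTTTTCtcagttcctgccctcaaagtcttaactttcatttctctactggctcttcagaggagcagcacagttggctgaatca
Trim12c, chr7:104353300-104353599, minus strand: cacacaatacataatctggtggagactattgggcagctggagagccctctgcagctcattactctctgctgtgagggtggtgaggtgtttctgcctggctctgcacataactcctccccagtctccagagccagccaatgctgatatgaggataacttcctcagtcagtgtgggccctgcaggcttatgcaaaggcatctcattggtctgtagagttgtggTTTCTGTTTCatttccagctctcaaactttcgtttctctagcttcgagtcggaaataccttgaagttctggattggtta
Trim12a, chr7:104315446-104315745, minus strand: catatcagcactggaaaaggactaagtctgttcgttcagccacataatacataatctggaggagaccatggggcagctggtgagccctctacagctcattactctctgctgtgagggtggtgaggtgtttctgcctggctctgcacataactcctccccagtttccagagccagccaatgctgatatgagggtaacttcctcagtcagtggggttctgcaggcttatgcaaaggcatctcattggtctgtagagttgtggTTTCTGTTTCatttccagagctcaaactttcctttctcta
Trim30d, chr7:104507800-104508099, minus strand: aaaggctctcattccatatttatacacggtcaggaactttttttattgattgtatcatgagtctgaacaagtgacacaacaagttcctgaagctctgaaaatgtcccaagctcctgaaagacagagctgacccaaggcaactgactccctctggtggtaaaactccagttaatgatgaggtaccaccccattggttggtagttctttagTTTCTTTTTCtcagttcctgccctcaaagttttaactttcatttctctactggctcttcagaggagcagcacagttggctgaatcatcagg
Trim34a, chr7:104244207-104244506, plus strand: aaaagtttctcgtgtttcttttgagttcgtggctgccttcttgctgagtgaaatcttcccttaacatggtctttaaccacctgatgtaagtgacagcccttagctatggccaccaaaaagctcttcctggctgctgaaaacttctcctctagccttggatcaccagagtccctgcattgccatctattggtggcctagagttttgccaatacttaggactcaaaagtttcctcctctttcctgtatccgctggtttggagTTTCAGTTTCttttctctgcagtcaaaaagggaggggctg
Trim21, chr7:102565433-102565732, minus strand: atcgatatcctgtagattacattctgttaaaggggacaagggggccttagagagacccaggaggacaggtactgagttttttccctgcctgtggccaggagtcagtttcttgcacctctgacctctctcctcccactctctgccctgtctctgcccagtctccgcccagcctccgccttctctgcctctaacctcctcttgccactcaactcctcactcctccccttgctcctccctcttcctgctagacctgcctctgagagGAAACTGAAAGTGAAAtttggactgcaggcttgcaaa
Trim26, chr17:36836896-36837195, plus strand: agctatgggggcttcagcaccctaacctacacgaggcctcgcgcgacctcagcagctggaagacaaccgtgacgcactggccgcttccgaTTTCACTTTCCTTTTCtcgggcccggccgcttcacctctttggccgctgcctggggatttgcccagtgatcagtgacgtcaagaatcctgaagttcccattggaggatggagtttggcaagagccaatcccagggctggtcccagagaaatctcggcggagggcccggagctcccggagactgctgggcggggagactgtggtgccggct

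In these windows the core began 36 bases before the start in Trim30a, 29 before in Trim12c and 41 before in Trim30d, but at base 11 in Trim12a and Trim34a, counting the start as base 1. The windows of Trim30a and Trim30d hold the same core letters, as do those of Trim12a and Trim12c. Trim21 and Trim26 each hold a pair of overlapping cores, written as 1 run of capitals. In epithelial-like cells the 8 tested members with a core had a median log2 fold change (TAK-981 over vehicle) of 1.10, and 7 were positive, while the 19 tested members with a window and no core had a median of 0.24. In macrophage-like cells the medians were 0.71 over 8 members, all positive, and 0.31 over 16 members. Other classes did not all show this order: the medians were 0.16 (9 members) and 0.18 (22 members) over all kept cells and 0.19 (4 members, 2 positive) and 0.0021 (11 members) in fibroblast-like cells. In neutrophil-like cells they were 1.43 and 1.04 over 4 members each. The single dendritic-like members stood at -0.21 and 0.32. In macrophage-like and neutrophil-like cells the highest fold change was that of Trim30c, whose windows hold no core. These medians were not tested, and the members with a core are in part near-identical copies of each other. In epithelial-like cells Trim30a, Trim12c, Trim30d and Trim34a, all with a core, passed the low count filter only with the TAK-981 libraries, where they are high. The same held for Trim34a in macrophage-like cells and for Trim12a and Trim30d in neutrophil-like cells. The differences between the medians in these classes are in part set by that filter and support nothing further.

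Levels across classes are given first, as UMIs per 1000000 UMIs of the class (CPM) on plain totals. The assay counts molecules at their 3′ ends, so these levels are not divided by gene length. Trim30a, which in mice dampens NF-kB signalling, differed widely between classes. Its mean was 228.5 ± 168 (SD, n = 4 libraries) in neutrophil-like, 107.7 ± 54.0 in macrophage-like, 85.8 ± 57.1 in endothelial-like and 3.56 ± 3.79 in epithelial-like cells. Its neutrophil-like range (59.6 to 398) overlapped its macrophage-like range (45.7 to 177), and its epithelial-like libraries (0.142 to 7.01) lay below those of every other class. Trim12c, a relative of the retroviral restriction factor TRIM5, followed the same order at its ends, with 92.5 ± 53.0 in neutrophil-like and 1.82 ± 1.87 in epithelial-like cells.

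Epithelial-like cells were richest in members outside the chromosome 7 cluster. Trim44, which lacks a RING finger and stabilises its partners, led at 65.6 ± 23.2 CPM, followed by Trim59 at 48.0 ± 10.4 and Trim33, a SMAD and chromatin regulator, at 47.9 ± 13.8. Trim8 (38.5 ± 12.4) and Trim47 (33.7 ± 16.5) completed the 5 highest. The ranges of these 5 neighbours overlapped throughout. Trim47 and Trim65 overlap on the same strand, so reads may be split between them.

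In macrophage-like cells Trim25, the ligase that activates the RNA sensor RIG-I, stood beside Trim30a at 102.6 ± 28.2 CPM, and Trim8 (55.6 ± 10.1), Trim35 (36.4 ± 12.6) and Trim27 (28.2 ± 7.40) came next. Trim25 was 21.0 ± 4.23 in epithelial-like cells, and all 4 macrophage-like libraries (80.8 to 143) lay above all 4 epithelial-like ones (16.6 to 26.0). Fibroblast-like cells had Trim35 (73.5 ± 8.49), Trim8 (49.5 ± 13.9), Trim44 (47.8 ± 13.4), Trim33 (35.3 ± 9.13) and Trim30a (34.8 ± 37.3) as their 5 highest. Trim2, an NHL-repeat ligase, was 25.1 ± 8.14 in endothelial-like, 18.6 ± 6.80 in fibroblast-like and 12.2 ± 2.95 in epithelial-like cells and 1.23 ± 0.738 in macrophage-like cells.

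By mean level, 11 members were highest in T or NK-like cells, 9 in neutrophil-like, 8 in epithelial-like, 7 in endothelial-like, 5 in fibroblast-like, 3 in dendritic-like and 2 in macrophage-like cells. For 5 members every library of the highest class lay above every library of the next class: Trim30b in neutrophil-like, Trim5 and Trim21 in T or NK-like, Trim16 in endothelial-like and Trim6 in epithelial-like cells. Trim21, the cytosolic antibody receptor, had 18.3 CPM in T or NK-like cells (13.6 to 22.7) and 7.40 in macrophage-like cells (3.91 to 10.7). The other 40 members had overlapping ranges in their first and second class.

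**Figure D1:**
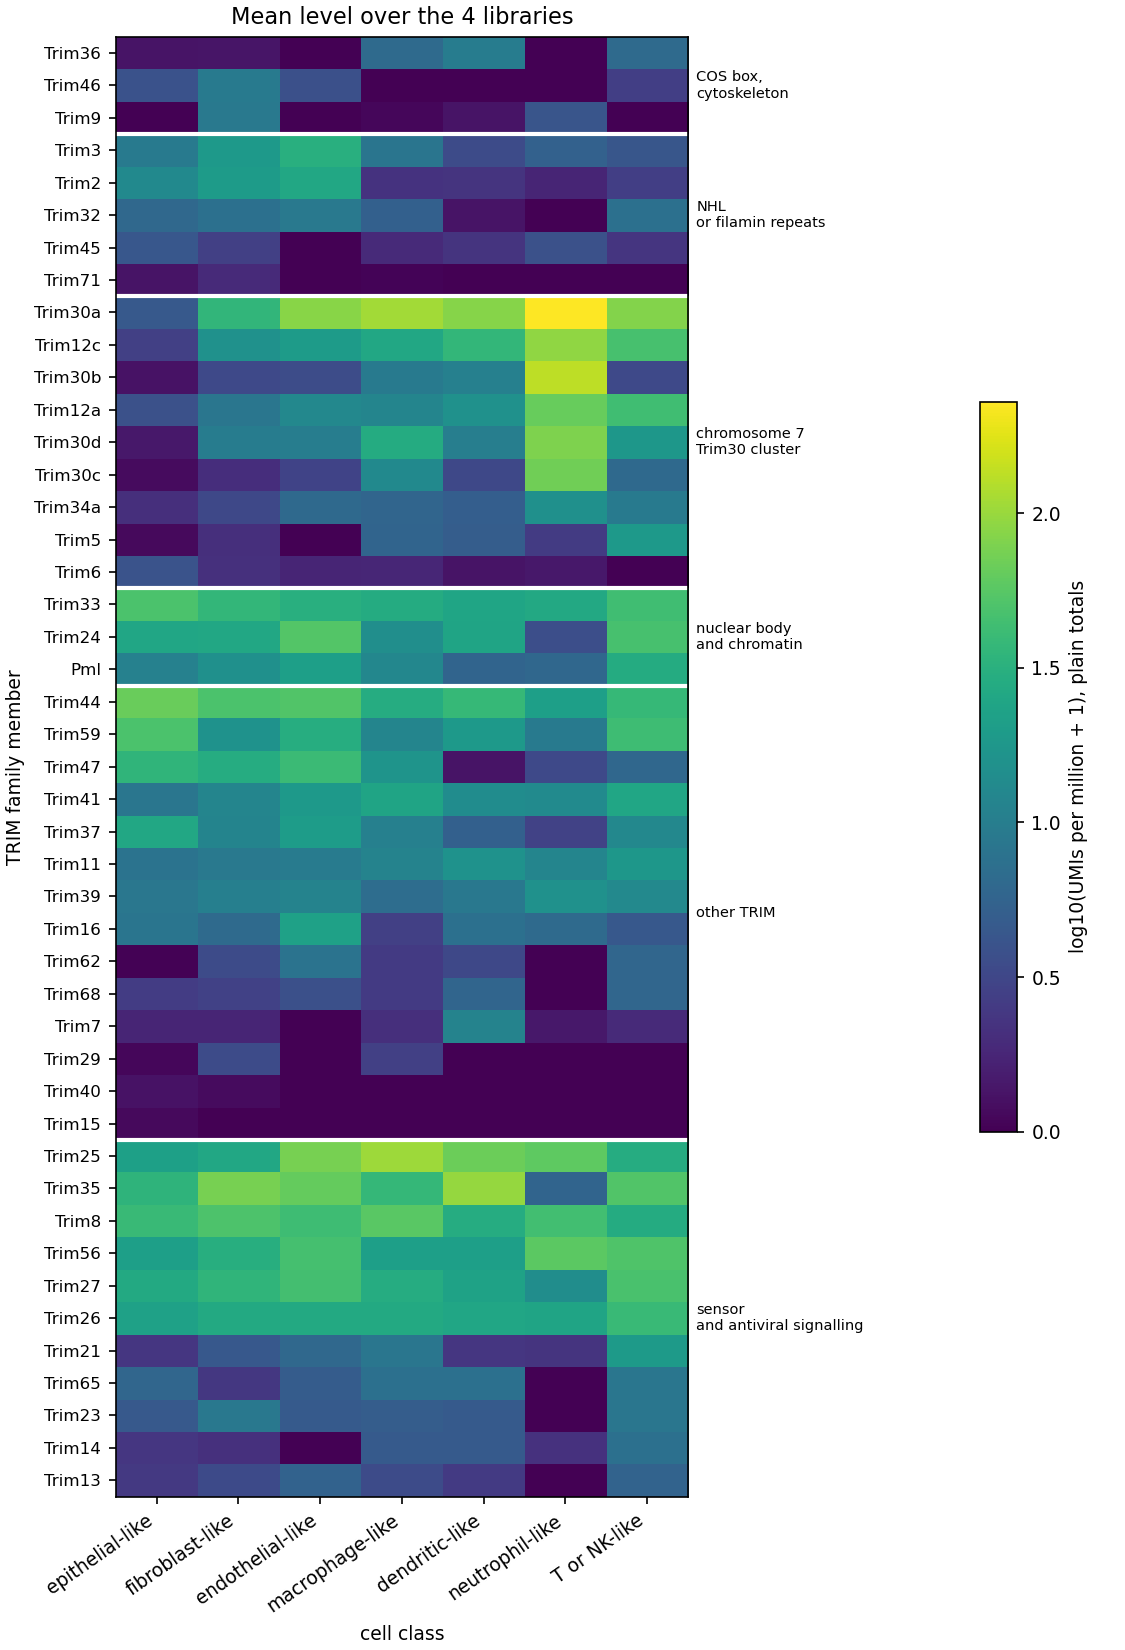
Mean level of each of the 45 members (rows, grouped by role) in 7 cell classes (columns), as log10(CPM + 1) on plain totals, over 4 libraries. Trim30a averaged 228.5 in neutrophil-like and 3.56 in epithelial-like cells, while Trim6 of the same chromosome 7 cluster was higher in epithelial-like cells (3.01) than in neutrophil-like cells (0.419).

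The effect of TAK-981 was tested in each class on UMIs summed per library, with edgeR's quasi-likelihood test, with p-values adjusted by Benjamini-Hochberg over every tested gene of the class, and a gene was called at an adjusted p under 0.05. Levels in this comparison are CPM after TMM scaling, which sets the middle of all genes level between libraries. TMM factors followed the groups: in epithelial-like cells the vehicle factors were 0.840 and 0.837 and the TAK-981 factors 1.22 and 1.17. On plain totals the median log2 fold change of all genes moved up by 0.52 in epithelial-like, 0.26 in macrophage-like and 0.24 in fibroblast-like cells, so all changes are relative to the middle of the genes. Statements that groups were apart or overlapped are on the TMM scale unless plain totals are named. Over all 12751 genes in epithelial-like cells, 69 were called higher and 215 lower with TMM, against 1232 higher and 197 lower on plain totals. Under plain totals 11 of the 35 members tested in epithelial-like cells changed from below 0 to above it. Fewer cells that express a gene and less RNA of it per cell cannot be told apart in these sums.

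In epithelial-like cells TAK-981 went with more RNA of 2 chromosome 7 members, Trim30a and Trim12c, both at 6 UMIs or fewer in each vehicle library. Of the 35 members that passed the filter 2 rose and 0 fell by edgeR, where 2.23% of all 12751 genes were called in either direction. DESeq2 also called 2, where 584 genes rose and 678 fell of 13325. Trim30a and Trim12c passed the low count filter only through the TAK-981 libraries where they are high, so the count over members that passed supports nothing further. Both TAK-981 libraries lay above both vehicle libraries for 16 members and below for 4, against 27% and 26.9% of all genes. The 35 members had a median log2 fold change of 0.21, and that of all genes was 0.01.

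Trim30a (ENSMUSG00000030921, chromosome 7, 104409025 to 104465193, minus strand, mm10) had 0.512 and 0.170 TMM-scaled CPM in the vehicle libraries against 5.77 and 5.70 in the TAK-981 libraries, from 6 and 3 against 119 and 339 UMIs. The TAK-981 libraries were alike and lay well above both vehicle libraries, with a log2 fold change of 4.14 ± 0.59 (SE, edgeR adjusted p = 0.0276). Trim12c (ENSMUSG00000057143, chromosome 7, 104338754 to 104353362, minus strand) had 0.256 and 0.226 in the vehicle libraries against 2.71 and 3.06 in the TAK-981 libraries, from 3 and 4 against 56 and 182 UMIs. Here too the groups were apart, with a log2 fold change of 3.57 ± 0.55 (SE, edgeR adjusted p = 0.0338). The call of Trim30a was lost without vehicle 2 (adjusted p = 0.0633) and that of Trim12c whichever library was left out (0.0761 to 0.134), so no member was called without vehicle 2. The log2 fold change of Trim30a ran from 3.46 (without vehicle 2) to 5.04 (without vehicle 1), and that of Trim12c from 3.43 to 3.64.

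The other tested cluster members in epithelial-like cells lay on the same side without a call. Of them Trim30d and Trim34a passed the low count filter only with the TAK-981 libraries, where they are high. Trim30d had 0 and 1 UMIs in the vehicle libraries against 17 and 35 under TAK-981 (edgeR adjusted p = 0.0960), and its fitted fold change depends on the prior count. It was called with no low count filter (adjusted p = 0.0236) and on plain totals (adjusted p = 0.0447). Trim34a had 0.769 and 0.509 TMM-scaled CPM in the vehicle libraries against 1.41 and 1.38 in the TAK-981 libraries, with a log2 fold change of 1.14 ± 0.55 (SE). Trim12a had 0.939 and 2.43 against 4.51 and 2.74, a log2 fold change of 1.07 ± 0.58 (SE), with its libraries apart by the distance from 2.43 to 2.74. Trim6, a ligase of interferon signalling, had 2.65 and 1.92 against 3.25 and 3.67, and its log2 fold change was 0.61 ± 0.41 (SE). For these last 3 genes, the adjusted p was 0.297 or more. Summed over the 9 members, the cluster stood at 5.30 and 5.37 in vehicle and at 19.9 and 17.6 under TAK-981.

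Trim30a and Trim12c differed between the epithelial-like clusters, as CPM on plain totals show. In cluster 5 Trim30a had 1.74 in vehicle 1 (2 UMIs), 0 UMIs in the 21 cells of vehicle 2, and 4.32 and 4.84 under TAK-981 (36 and 146 UMIs). In cluster 3 it had 2 and 0 UMIs in the vehicle libraries against 3 and 14 under TAK-981. In cluster 4, which held most cells of vehicle 2, it had 2 and 3 UMIs in the vehicle libraries against 0 and 2 in the 33 and 40 TAK-981 cells, too few for a comparison. Its levels under TAK-981 were 10.6 and 10.03 in cluster 16 (63 and 12 UMIs) and 18.8 in cluster 21 of TAK-981 2 (159 UMIs), clusters with almost no vehicle cells. Trim12c reached 13.3 in cluster 21 of TAK-981 2, and in cluster 5 it had 0 and 1 UMIs in vehicle and 26 and 58 UMIs under TAK-981. In CPM these are 0 and 4.63 against 3.12 and 1.92, where the 1 UMI came from the 21 cells of vehicle 2, and no difference from vehicle 2 was detectable at that depth. In cluster 3, with 436 and 185 vehicle cells, Trim12c had 1 and 0 UMIs in the vehicle libraries against 0 and 2 under TAK-981. The difference between the groups in the class sums and the different cluster makeup of the groups cannot be told apart.

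**Figure D2:**
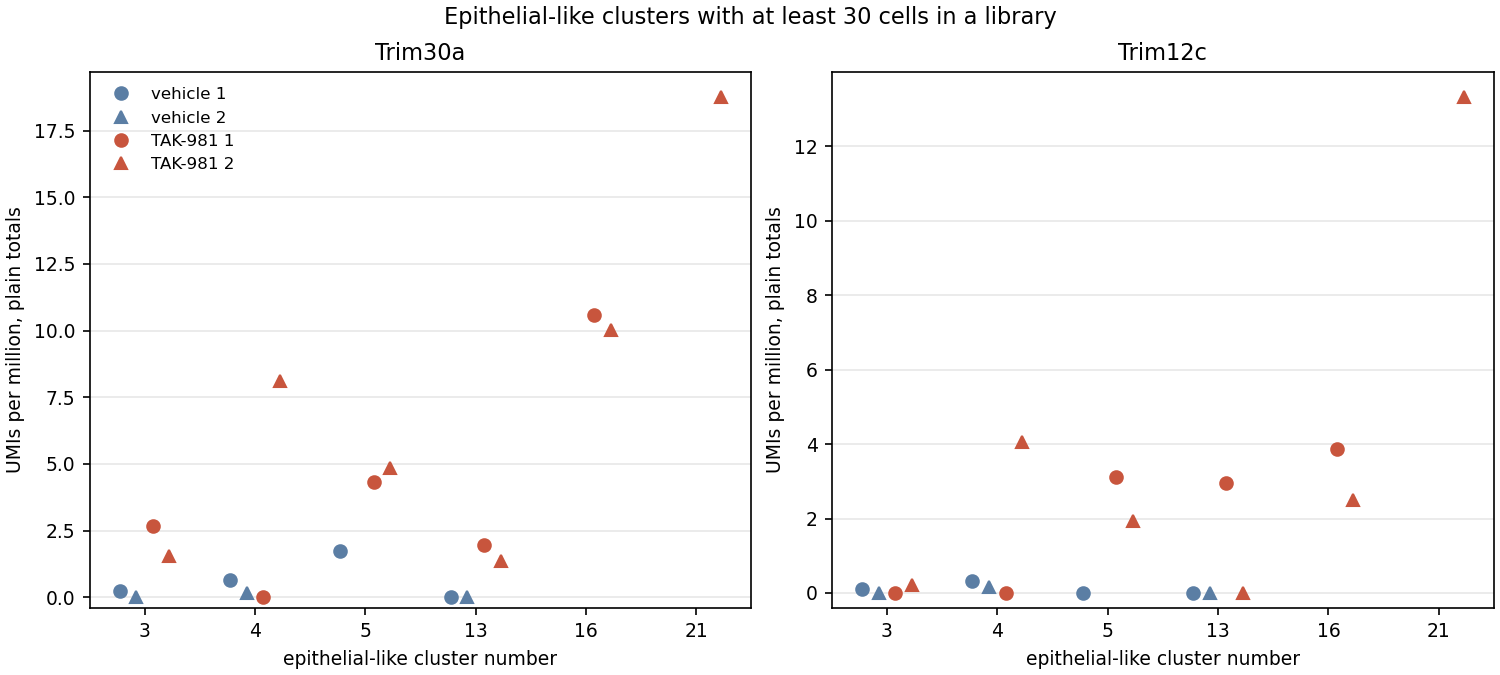
CPM on plain totals (vertical axis) of Trim30a and Trim12c in each epithelial-like cluster (horizontal axis), 1 point a library with at least 30 cells there. Cluster 21, with points from TAK-981 2 alone, is highest at 18.8 for Trim30a and 13.3 for Trim12c.

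Immune RNA moved with the treatment in the same sums. The 8 macrophage markers summed to 21.6 and 21.6 CPM (plain totals) in epithelial-like cells of vehicle and to 597 and 66.5 under TAK-981, with 7 of 8 higher in both TAK-981 libraries and none at 0 throughout. The 8 neutrophil markers went from 17.6 and 20.8 to 124 and 52.4, and all 8 were higher in both. The 12 acinar markers went from 14.6 and 0.378 to 168 and 62.1, with 11 higher in both. If macrophage and neutrophil RNA came in at the ratio of Trim30a to markers seen in those classes, it would bring 0.185 and 0.0725 CPM of Trim30a to the vehicle sums and 3.81 and 1.07 to the TAK-981 sums. The observed Trim30a was 0.430, 0.142, 7.01 and 6.66, which is 2.33, 1.96, 1.84 and 6.25 times the computed amount. For Trim12c these ratios were 4.51, 6.80, 2.73 and 11.8. In both genes the ratio was lowest in TAK-981 1 and highest in TAK-981 2. For Trim30d the ratio was 1.02 in TAK-981 1. This amount assumes that all marker UMIs came from such RNA, and its part in the tests was not measured further than in the cells described next.

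Epithelial-like cells with no UMI of a macrophage, neutrophil, dendritic, T or NK or B cell marker were looked at apart. These were 475, 900, 281 and 464 cells in library order. Trim30a had 0, 0, 2 and 42 UMIs in them, which is 8.50 CPM in TAK-981 2 and at most 0.687 and 0.417 in vehicle, the limits that a count of 0 allows (3 UMIs of the total, counting error only). Trim12c had 0, 1, 2 and 31 UMIs. In TAK-981 1, 2 UMIs lie under the level of 3 UMIs (3.18 CPM), so no difference was detectable at that depth. With too few UMIs neither gene passed the filter in these cells, and of the 25 members that did 0 were called.

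Members with roles in sensing were tested in full in epithelial-like cells, and 0 of 11 were called. Trim21 had 0.683 and 0.961 TMM-scaled CPM in the vehicle libraries against 1.55 and 1.82 in the TAK-981 libraries, with a log2 fold change of 1.02 ± 0.52 (SE, edgeR adjusted p = 0.321). Trim56, which acts with the DNA sensor pathway, had 12.98 and 19.95 against 21.6 and 24.9, with a log2 fold change of 0.49 ± 0.28 (SE). Trim25 (19.8 and 22.1 against 18.7 and 22.3) and Trim26 (16.7 and 23.3 against 18.2 and 25.4) overlapped between the groups. The 5 most abundant members had log2 fold changes from -0.04 to 0.36 and no call: Trim44 had 51.1 and 59.8 against 63.6 and 79.1, and Trim59 55.9 and 40.2 against 45.9 and 47.5. Trim33 had 41.7 and 44.8 against 46.1 and 54.1, Trim8 36.5 and 31.0 against 36.9 and 45.2, and Trim47 31.4 and 25.8 against 47.7 and 24.7.

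In 4 members both TAK-981 libraries lay below both vehicle libraries in epithelial-like cells after TMM scaling, and none was called. On plain totals none of the 4 kept this: Trim37, Pml and Trim7 overlapped, with log2 fold changes of -0.14, -0.057 and -0.079, and Trim11 turned to 0.26. Trim37, a ligase that guards centriole number, had 36.4 and 26.7 TMM-scaled CPM in the vehicle libraries against 22.0 and 18.2 in the TAK-981 libraries, with a log2 fold change of -0.65 ± 0.25 (SE, edgeR adjusted p = 0.218). Pml had 10.3 and 14.0 against 7.80 and 8.68, with a log2 fold change of -0.56 ± 0.27 (SE, edgeR adjusted p = 0.299). Trim7 had 0.854 and 1.02 against 0.630 and 0.622. Trim11 had 7.69 and 7.41 against 5.91 and 6.81, a log2 fold change of -0.24 ± 0.28 (SE).

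In macrophage-like cells 0 of 32 tested members were called by edgeR, beside 0.517% of all 10449 genes. DESeq2 called 0 members. At an unadjusted p under 0.05 (edgeR) there were 3 members (Trim26, Trim30c and Trim35), beside 1415 of all genes. On plain totals the number was 14, beside 2101 of all genes, with 0 members called. It also moved when vehicle 1 or TAK-981 2 was left out, fits that hold 1 library in a group. The libraries were apart with TAK-981 higher for 15 members and lower for 3, against 23% and 23.2% of all genes. The members' median log2 fold change was 0.33 and that of all genes 0.00. Trim30b, Trim30c and Trim34a, among the 15, passed the low count filter only with the TAK-981 libraries, where they are high.

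All 8 cluster members tested in macrophage-like cells had positive log2 fold changes, from 0.06 to 1.99 with a median of 0.74. In vehicle 2 Trim30b, Trim30c and Trim34a fell short of the low count filter. They passed it only with the TAK-981 libraries, where they are high. The count and median over cluster members that passed therefore support nothing further. In the same class the median mitochondrial share was 2.73%, 2.71%, 7.82% and 5.25% in library order, and acinar markers summed to 25.2 and 0 against 418 and 158 CPM (plain totals). Neutrophil markers summed to 267 and 240 against 290 and 798. Cluster 1, led by Ly6c2, Ms4a4c and Rsad2, held 335, 62, 48 and 151 of the macrophage-like cells, and Trim30a was highest there. Their part in the fold changes was not tested. Trim30c had 7.08 and 1.40 TMM-scaled CPM in the vehicle libraries against 11.4 and 26.3 in the TAK-981 libraries, with a log2 fold change of 1.99 ± 0.63 (SE, edgeR adjusted p = 0.237). Trim30b had 6.56 and 0.467 against 8.22 and 15.9, with a log2 fold change of 1.57 ± 0.71 (SE). In both genes vehicle 2 was far below vehicle 1, and the TAK-981 libraries differed from each other as well.

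Trim30a, the most abundant, had 109 and 49.0 TMM-scaled CPM in macrophage-like cells of vehicle and 102 and 162 under TAK-981. After TMM scaling the groups overlapped, with TAK-981 1 below vehicle 1, and the log2 fold change was 0.72 ± 0.40 (SE, edgeR adjusted p = 0.469). Trim30d (24.1 and 11.7 against 20.4 and 49.6) and Trim5 (5.51 and 3.73 against 5.61 and 4.24) overlapped too. On plain totals the groups were apart for Trim30a (97.4 and 45.7 against 110.9 and 177, adjusted p = 0.215 by edgeR) and Trim30d (21.5 and 10.9 against 22.3 and 54.2), but not for Trim5. Within clusters, Trim30a on plain totals was 65.9 and 37.2 against 78.3 and 99.1 in cluster 0, and 222 and 68.7 against 293 and 371 in cluster 1. It was 93.3 and 47.9 against 105.9 and 123 in cluster 17, and 69.8 and 18.9 against 110.2 and 106.8 in cluster 18, where vehicle 2 held 1 UMI. In each of the 4 clusters both TAK-981 libraries lay above both vehicle libraries. On plain totals the median log2 fold change of all genes in this class was itself 0.26. The share of all genes apart within a cluster was not counted. The 4 clusters come from the same 4 mice, so they are not independent of each other. Trim12c had 23.9 and 14.5 against 30.1 and 29.7, Trim12a 9.18 and 6.07 against 11.2 and 15.5, and Trim34a 5.24 and 1.87 against 5.61 and 6.57. In these last 3 the groups were apart, by little in Trim34a. The paralogs are similar in sequence, so reads may be assigned to the wrong copy.

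Among the sensing members in macrophage-like cells Trim26 had 17.8 and 19.1 TMM-scaled CPM in the vehicle libraries against 29.3 and 36.5 in the TAK-981 libraries, with a log2 fold change of 0.83 ± 0.24 (SE, edgeR adjusted p = 0.201). Its groups were apart by more than the spread within either group, yet it did not pass over all genes. Trim21 had 6.56 and 4.201 against 8.42 and 9.75, and Trim56 20.7 and 14.0 against 23.5 and 23.1. Trim25, at 112 and 92.9 against 74.2 and 131, had a log2 fold change of -0.00075 ± 0.30 (SE). Trim35 had 24.7 and 32.2 against 45.3 and 40.5, Trim8 52.4 and 54.1 against 50.9 and 63.8, and Trim27 22.8 and 27.1 against 34.7 and 26.9. Of these last 3, Trim35 alone had groups apart after TMM scaling, while on plain totals Trim8 (46.7 and 50.5 against 55.5 and 69.7) and Trim27 (20.3 and 25.2 against 37.8 and 29.4) were apart too.

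The nuclear and chromatin members in macrophage-like cells were not called. Pml had 10.2 and 6.53 TMM-scaled CPM in the vehicle libraries against 10.8 and 17.0 in the TAK-981 libraries, with a log2 fold change of 0.69 ± 0.37 (SE, edgeR adjusted p = 0.461). Trim33 had 24.7 and 22.9 against 31.1 and 29.3, and Trim24, a bromodomain chromatin reader, had 11.5 and 15.9 against 11.8 and 15.3. Below both vehicle libraries under TAK-981 were Trim11 (12.6 and 13.1 against 8.02 and 8.69), Trim59 (12.3 and 12.6 against 10.02 and 8.69) and Trim36 (7.87 and 5.13 against 4.61 and 4.88). Their log2 fold changes were -0.61 ± 0.29, -0.41 ± 0.29 and -0.49 ± 0.40 (SE).

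**Figure D3:**
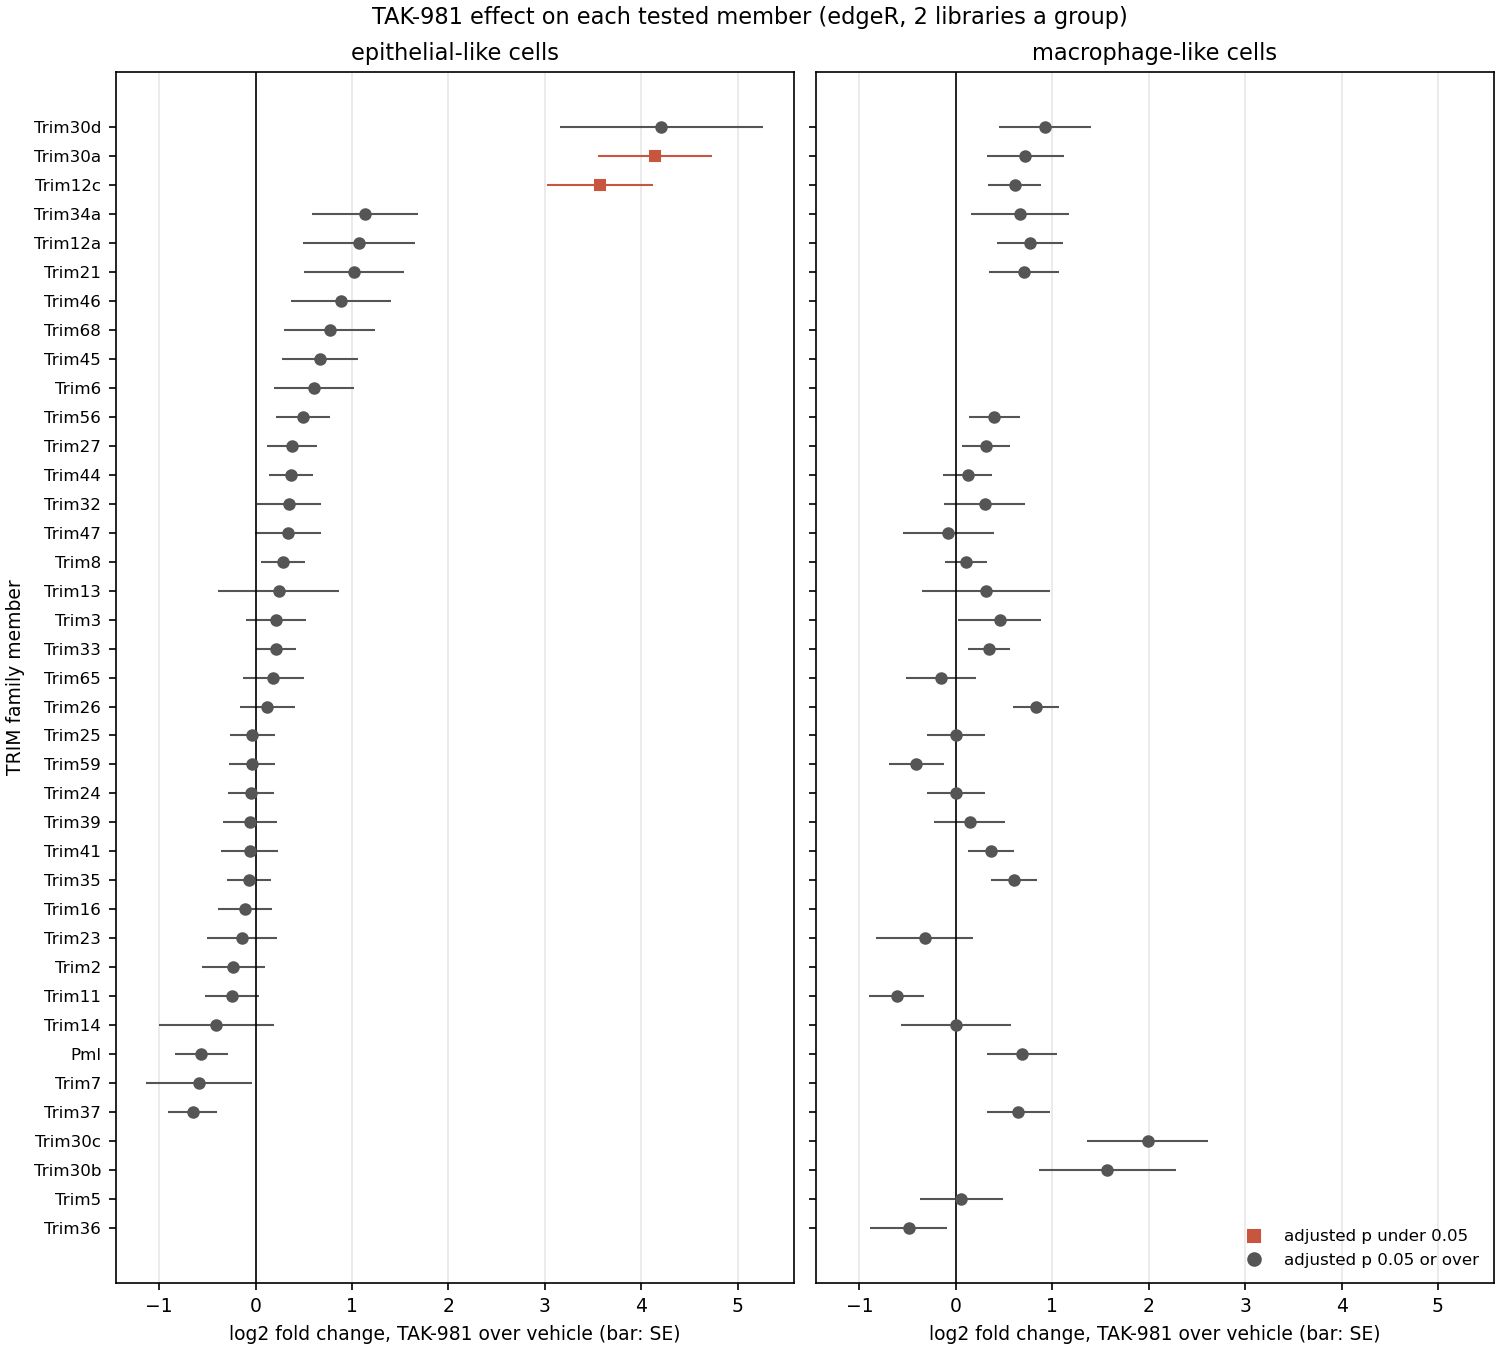
Log2 fold change of TAK-981 over vehicle (horizontal axis, bars are 1 SE) for each member tested (vertical axis) in epithelial-like or macrophage-like cells; red squares had an edgeR adjusted p under 0.05. Trim30a (4.14) and Trim12c (3.57) in epithelial-like cells are the called members, and the point of Trim30d rests on 1 vehicle UMI.

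In fibroblast-like cells 0 of 20 tested members were called, beside 0.991% of all 8977 genes, and DESeq2 called 0 members. By edgeR 2 members had an unadjusted p under 0.05, beside 896 of all genes. No member had both TAK-981 libraries above both vehicle libraries and 3 had them below, against 20.3% and 20.8% of all genes. Trim30a had 22.9 and 9.88 TMM-scaled CPM in the vehicle libraries against 17.9 and 84.4 in the TAK-981 libraries, and the high value was that of TAK-981 2 (log2 fold change 1.72 ± 0.72, SE, edgeR adjusted p = 0.475). Macrophage markers in this class summed to 84.7 and 92.1 CPM (plain totals) in vehicle and to 1107 and 255 under TAK-981, with 7 of 8 higher in both, so the highest macrophage sum was in TAK-981 1 and the highest Trim30a in TAK-981 2. Neutrophil markers summed to 71.3 and 77.8 in vehicle and to 170 and 372 under TAK-981, with 3 of 8 higher in both and the highest sum in TAK-981 2. The part of immune RNA in the result was not tested. Trim12c (19.7 and 5.93 against 12.4 and 20.5) overlapped.

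Trim2 was the largest of the lower members in fibroblast-like cells, with 29.5 and 23.7 TMM-scaled CPM in vehicle and 11.04 and 13.4 under TAK-981 (log2 fold change -1.09 ± 0.40, SE, edgeR adjusted p = 0.386). Trim41 had 13.1 and 14.8 against 8.28 and 8.95, and Trim11 9.83 and 9.88 against 4.14 and 8.95. The abundant members overlapped between the groups: Trim35 had 73.7 and 81.0 against 80.1 and 63.9, Trim8 50.8 and 38.5 against 45.6 and 63.9, Trim44 31.1 and 60.3 against 46.9 and 54.4, and Trim33 26.2 and 37.5 against 35.2 and 42.8. Trim25 (26.2 and 21.7 against 21.4 and 32.0), Trim26 (24.6 and 30.6 against 24.2 and 27.5) and Trim56 (26.2 and 32.6 against 24.2 and 36.4) overlapped as well. The 20 members had a median of -0.01, equal numbers of positive and negative values and no subgroup with a call.

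Neutrophil-like cells had the highest mean level of 7 of the 9 cluster members (not Trim5 and Trim6) and low depth, with 77813 and 200699 UMIs in the TAK-981 sums. Of 9 tested members 0 were called by edgeR, beside 0.159% of all 3140 genes. DESeq2 called 1, Trim30c, where 23 genes rose and 14 fell of 2601. At an unadjusted p under 0.05 (edgeR) there were 6 members, beside 373 of all genes. The 6 were the cluster members that passed the filter, and in each both TAK-981 libraries lay above both vehicle libraries. With Trim8 this held for 7 members and the reverse for 0, against 20.4% and 22.9% of all genes. Trim8, Trim12a, Trim30c and Trim30d passed the low count filter only with the TAK-981 libraries, where they are high. The counts over members that passed therefore support nothing further. Median depth moved with the groups, at 665.5 and 623 against 1585.5 and 1439 UMIs a cell, as did the mitochondrial share, at 0.999% and 0.610% against 5.68% and 1.42%. Among cells with at least 1000 UMIs (102, 78, 52 and 111) 0 of 14 members had an unadjusted p under 0.05, beside 467 of 4924 genes. The median log2 fold change of these 14 was 0.46. Without this limit it was 1.39 over the 9 members tested, so the medians cover different sets of members. Trim30c had 14.3 and 3.00 TMM-scaled CPM in the vehicle libraries against 177 and 99.5 in the TAK-981 libraries, from 7 and 1 against 14 and 17 UMIs (log2 fold change 3.74 ± 0.68, SE, edgeR adjusted p = 0.0559). Trim30a had 137 and 60.0 against 393 and 404 (log2 fold change 2.00 ± 0.52, SE, edgeR adjusted p = 0.136). In cells with at least 1000 UMIs the log2 fold changes were 2.36 for Trim30c and 1.502 for Trim30a (edgeR adjusted p = 0.538 and 0.532). Leaving out 1 library gave 1 or 2 called members, with Trim30c at an edgeR adjusted p from 0.00137 to 0.0410, but Trim30c had few vehicle UMIs and passed the filter through the TAK-981 libraries, where it is high.

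The other cluster members in neutrophil-like cells had log2 fold changes between 1.33 and 1.60. Trim30b had 93.9 and 42.0 TMM-scaled CPM in the vehicle libraries against 253 and 176 in the TAK-981 libraries, and Trim12c had 67.3 and 39.0 against 139 and 158. Trim30d had 57.1 and 36.0 against 139 and 105, and Trim12a 46.9 and 24.0 against 127 and 76.1. Trim25 (75.5 and 63.0 against 50.7 and 70.3) and Trim56 (49.0 and 48.0 against 101 and 46.8) overlapped between the groups. The 8 neutrophil markers summed were lower under TAK-981, at 73146 and 68638 against 34506 and 34524 CPM (plain totals), with 1 of 8 higher in both TAK-981 libraries. Acinar markers stood at 83.7 and 0 against 3251 and 448 and epithelial markers at 178 and 438 against 1208 and 533, so both sums moved with the groups. Their part in these values was not tested.

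**Figure D4:**
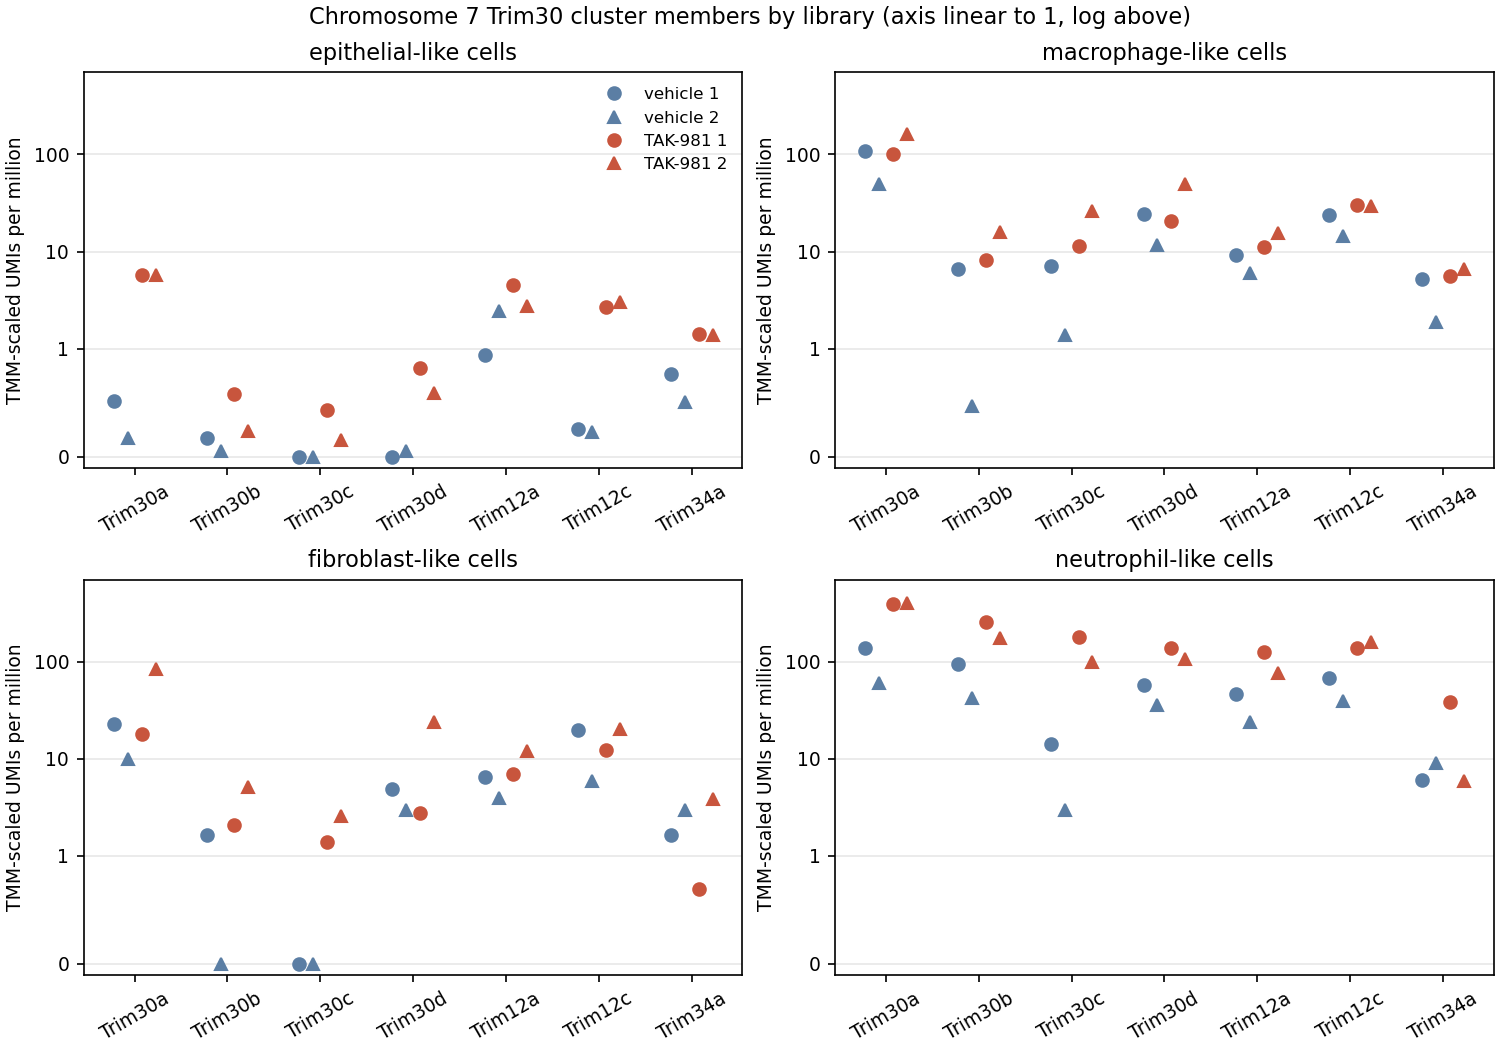
TMM-scaled CPM (vertical axis, linear to 1 and logarithmic above) of 7 chromosome 7 cluster members (horizontal axis) in 4 cell classes, 1 point a library. In neutrophil-like cells the TAK-981 points of Trim30a (393 and 404) lie above both vehicle points, while in macrophage-like cells they overlap on this scale for Trim30a, though not on plain totals.

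The remaining classes gave few tests. In T or NK-like cells 0 of 10 members were called beside 0.0514% of 3888 genes, and DESeq2 gave no member an adjusted p. By edgeR 0 members and 532 of all genes had an unadjusted p under 0.05. Trim26 had 23.7 and 53.4 TMM-scaled CPM in the vehicle libraries against 43.1 and 47.7 in the TAK-981 libraries, Trim56 had 77.1 and 40.1 against 49.7 and 57.2, and both overlapped. In dendritic-like cells, with 28 cells in TAK-981 2, 0 of 3 members were called beside 4.46% of 3277 genes. By edgeR 0 members and 479 of all genes had an unadjusted p under 0.05, and DESeq2 gave no member an adjusted p. Trim25 had 89.0 and 23.1 against 67.2 and 113 there.

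In endothelial-like cells, with 15 cells in TAK-981 2, 0 of 10 members were called beside 1.82% of 4680 genes, and DESeq2 called 0 members. By edgeR 2 members (Trim47 and Trim59) and 756 of all genes had an unadjusted p under 0.05. Trim25 had 83.9 and 79.0 TMM-scaled CPM in the vehicle libraries against 58.6 and 105 in the TAK-981 libraries, and Trim56 had 51.3 and 48.1 against 76.6 and 24.3. TAK-981 2 held Trim56 at 3 UMIs, so its low value carries little depth.

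Summed over all kept cells, 0 of 41 members were called beside 0% of 14485 genes, and DESeq2 called 0 members. By edgeR 0 members and 2095 of all genes had an unadjusted p under 0.05. Trim21 had 2.63 and 1.42 TMM-scaled CPM in the vehicle libraries against 3.02 and 2.71 in the TAK-981 libraries, and Trim56 had 16.9 and 20.5 against 23.1 and 26.0. Both had their groups apart. In this fit 12 members were apart with TAK-981 higher and 5 with it lower, against 24.5% and 23.3% of all genes. Trim25 (46.2 and 32.5 against 31.3 and 35.6) and Trim26 (17.5 and 22.7 against 20.7 and 27.4) overlapped. These sums mix classes in different shares, since 758 and 461 neutrophil-like cells came from vehicle tumours but 44 and 103 from TAK-981 tumours. Over all fits 43 of the 45 members were tested at least once, and Trim15 and Trim40 never passed the filter.

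Whether the effect of TAK-981 differed between classes was tested with an interaction term and the library as a block. Between macrophage-like and epithelial-like cells 0 of 41 members were called beside 0% of 13136 genes. At an unadjusted p under 0.05 there were 6 members, beside 1419 of all genes. The effect on Trim30a was smaller in macrophage-like cells by a log2 difference of -3.48 ± 0.43 (SE, edgeR unadjusted p = 9.9e-05, adjusted p = 0.0723). For Trim12c the difference was -2.96 ± 0.45 (SE, edgeR adjusted p = 0.133). Both values depend on single libraries: Trim30a was called without TAK-981 1 (edgeR adjusted p = 0.000311) and without TAK-981 2 (5.07e-06), but had adjusted p = 0.515 without vehicle 1 and 0.685 without vehicle 2. Trim12c gave 0.0108, 0.00706, 0.674 and 0.685 in the same order. Between macrophage-like and fibroblast-like cells 0 of 33 members were called beside 0.145% of 11060 genes, and between epithelial-like and fibroblast-like cells 0 of 39 beside 0.274% of 13489 genes. At an unadjusted p under 0.05 there were 4 and 3 members, beside 560 and 1040 of all genes. DESeq2 was not run on these interactions.

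Partner genes of TRIM proteins were followed in lists of RNA and DNA sensing, interferon receptor signalling and PML nuclear bodies. In epithelial-like cells 1 of 17 tested sensing genes rose, 0 of 7 receptor genes and 0 of 9 nuclear body genes were called, with medians of 0.31, 0.46 and 0.20, beside 2.23% of all genes called. On plain totals 3, 2 and 3 genes of these lists rose, with medians of 0.81, 0.97 and 0.71 where that of all genes was 0.52. Of all 12751 genes 1232 rose and 197 fell on plain totals. The gene that rose with TMM was Irf7, a transcription factor that amplifies the interferon response, from 1.71 and 0.848 TMM-scaled CPM in vehicle to 15.9 and 10.2 under TAK-981 (log2 fold change 3.38 ± 0.46, SE, edgeR adjusted p = 0.0253). Macrophage and neutrophil markers and the cluster makeup moved with the groups in these epithelial-like sums. Irf7 is also among the leading genes of macrophage-like cluster 1. The part of immune RNA and of cluster makeup in its rise was not tested. In neutrophil-like cells 1 of 7 sensing genes rose, beside 0.159% of all genes. This was Zbp1, a nucleic acid sensor, from 18.4 and 3.00 to 215 and 187 (log2 fold change 4.04 ± 0.64, SE, edgeR adjusted p = 0.0315). It passed the low count filter only through the TAK-981 libraries, where it is high. Depth, mitochondrial share and acinar and epithelial RNA moved with the groups in this class, and their part was not tested. In Irf7 and Zbp1, as in Trim30a, both TAK-981 libraries lay above both vehicle libraries. Of all genes 27% did so in epithelial-like and 20.4% in neutrophil-like cells.

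In macrophage-like cells 0 of 18 sensing, 0 of 7 receptor and 0 of 10 nuclear body genes were called, with medians of 0.09, 0.19 and 0.16. The corresponding fibroblast-like counts were 0 of 16, 0 of 6 and 0 of 10, with medians of -0.12, 0.78 and 0.29. At an unadjusted p under 0.05 these lists held 3, 0 and 2 genes in macrophage-like and 3, 2 and 2 in fibroblast-like cells. Over all genes tested, 1415 of 10449 and 896 of 8977 were under it in these classes.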

How the data were processed

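The authors deposited a 10x Genomics 3′ table for each library, whose values are UMI counts of a gene in a barcode. The submitters' processing notes name Cell Ranger 6.1.2 and the genome mm10. Tumours were dissociated with a Miltenyi kit, red cells were lysed and dead cells were removed where viability was low, per the labels' protocols, steps that can change which cells are seen. Columns not used numbered 0.

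From the deposited counts, barcodes were kept from 500 UMIs and 250 genes upward if mitochondrial genes held at most 20%. Doublets were removed per library by the score of Scrublet (168, 146, 41 and 81 cells), at an expected 0.8% for each 1000 cells. Cells were clustered with scanpy 1.11.5 (2000 variable genes, 30 components, 15 neighbours, Leiden resolution 1), and Trim30a, Trim12a and Trim30b were among the variable genes. A cluster was named only from at least 3 detected markers. Unnamed clusters (259, 574, 55 and 221 cells) entered only the sum over all kept cells, and classes with fewer than 15 cells in a library were not fitted.

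The counts of each class were added up in every library and tested with edgeR 4.0.16 (filterByExpr, TMM, quasi-likelihood). DESeq2 1.42.0 was an alternative. The libraries of a group differed beyond sampling noise (chi-squared per degree of freedom 149 and 114). The 3 UMI limits and exact intervals cover counting error only. Genes named are the members called, the 5 largest higher and 5 largest lower members whose libraries do not overlap and the 5 highest by level in epithelial-like, macrophage-like and fibroblast-like cells. Also named are the tested chromosome 7 and nuclear members of macrophage-like cells, Trim21, Trim25, Trim26 and Trim56 wherever tested, and partners called. The neutrophil values, the interaction values and cluster levels were chosen after their values were seen. The members and lists were chosen with earlier results of these data known.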

Additional observations from a re-analysis of the deposited data

Results flagged for a closer look

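In 3 cases both TAK-981 libraries lay on one side of vehicle in one class and on the other side in a second class, and the difference was tested with an interaction term in edgeR. Pml was lower under TAK-981 in epithelial-like and higher in macrophage-like cells, by a log2 difference of 1.11 ± 0.45 (SE, edgeR unadjusted p = 0.0466, adjusted p = 0.453). Trim37 did the same, by 1.19 ± 0.32 (SE, edgeR unadjusted p = 0.00826, adjusted p = 0.285). Trim41 was lower in fibroblast-like and higher in macrophage-like cells, by 1.03 ± 0.48 (SE, edgeR unadjusted p = 0.0499, adjusted p = 0.985). None of the 3 passed the adjusted threshold. They were picked by this pattern in the same values that were tested, so their small unadjusted p-values are in part set by the choice and support nothing further. The share of all genes with such a pattern was not counted. The epithelial-like side of Pml and Trim37 rests on TMM scaling: on plain totals their groups overlapped there, with log2 fold changes of -0.057 and -0.14, and the differences between the classes were 0.97 and 1.06 (edgeR adjusted p = 0.432 and 0.282).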

How the results depend on the processing

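Of 1137 values of 68 named fold changes under alternatives, 1050 kept direction and side of the threshold, 5 lost a call, 23 gained one and 59 changed sign, in fold changes of size 0.48 or less. The cause was not tested. The replicate block gave 2 called members in epithelial-like cells and 0 in each other class fit. The replicate numbers do not pair the mice (correlations of deviations from -0.15 to 0.07).

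Without the low count filter the called members numbered 4 in epithelial-like, 3 in macrophage-like, 1 in fibroblast-like and 1 in neutrophil-like cells. Of all genes 1116 rose and 847 fell of 20468, 273 and 456 of 16736, 174 and 240 of 16520, and 69 and 46 of 12679 in that order. In the differences of epithelial-like from macrophage-like and fibroblast-like cells they numbered 2 and 1. Of all genes 21 were called above 0 and 355 below of 21143, and 277 and 44 of 21153. In neutrophil-like cells DESeq2, plain totals and thinned totals each gave 1. Of all genes 23 rose and 14 fell of 2601, 23 and 9 of 3140, and 28 and 23 of 1079 in that order. The macrophage-like against epithelial-like difference gave 1 with thinned totals and 1 with no doublet removal. Of all genes 0 were called above 0 and 26 below of 12952, and 0 and 24 of 13172. Epithelial-like cells with no immune marker UMI gave 0, where fewer cells left both genes under the filter. Leaving out 1 library changed the number called in epithelial-like and neutrophil-like cells. It also changed, for some libraries, in the differences of epithelial-like from macrophage-like and fibroblast-like cells. Such fits hold 1 library in a group, so their counts are not given here. A lone library was assumed to vary like the other group.

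Reversed log2 values with plain totals were 0.26 for Trim11 (epithelial), 0.14 for Trim25 (all kept), 0.13 for Trim25 (endothelial), 0.47 for Trim25 (epithelial), 0.26 for Trim25 (macrophage), 0.13 for Trim26 (fibroblast), 0.13 for Trim35 (fibroblast), 0.092 for Trim56 (T or NK) and 0.47 for Trim59 (epithelial). With the replicate block it was -0.0096 for Trim24 (macrophage). Reversed log2 values with thinned totals were -0.13 for Trim24 (macrophage), 0.011 for Trim26 (fibroblast) and 0.030 for Trim35 (fibroblast). Without transcripts under 800 nt it was -0.0032 for Trim24 (macrophage). Reversed log2 values with at least 1000 UMIs per cell were -0.027 for Trim24 (macrophage), 0.030 for Trim25 (macrophage) and 0.060 for Trim35 (fibroblast). Reversed log2 values with at most 10% mitochondrial UMIs were -0.10 for Trim24 (macrophage), 0.062 for Trim25 (macrophage) and 0.034 for Trim35 (fibroblast). Reversed log2 values with members left out of clustering were -0.014 for Trim24 (macrophage) and 0.043 for Trim25 (macrophage). With Leiden resolution 2.0 it was -0.078 for Trim24 (macrophage). Reversed log2 values without the low-depth clusters were -0.058 for Trim24 (macrophage) and 0.0059 for Trim25 (macrophage). Reversed log2 values with the unnamed cluster added were -0.033 for Trim24 (macrophage) and 0.080 for Trim25 (macrophage). With DESeq2 it was 0.011 for Trim25 (macrophage). With RLE scaling it was 0.0034 for Trim25 (macrophage). With no low count filter it was 0.020 for Trim25 (macrophage). With no doublet removal it was -0.033 for Trim56 (fibroblast). Leaving out 1 library in turn gave -0.23 to 0.23 for Trim24 (macrophage), -0.47 to 0.042 for Trim25 (all kept), -0.090 to 1.92 for Trim25 (dendritic), -0.54 to 0.34 for Trim25 (endothelial), -0.20 to 0.060 for Trim25 (epithelial), -0.15 to 0.43 for Trim25 (fibroblast) and -0.46 to 0.37 for Trim25 (macrophage). It gave -0.54 to 0.022 for Trim25 (neutrophil), -0.16 to 0.94 for Trim26 (T or NK), -0.18 to 0.38 for Trim26 (epithelial), -0.24 to 0.066 for Trim26 (fibroblast), -0.28 to 0.044 for Trim35 (fibroblast), -0.25 to 0.69 for Trim44 (fibroblast) and -0.23 to 0.71 for Trim47 (epithelial) likewise. It also gave -0.16 to 0.40 for Trim5 (macrophage), -0.50 to 0.49 for Trim56 (T or NK), -1.04 to 0.56 for Trim56 (endothelial), -0.30 to 0.29 for Trim56 (fibroblast), -0.041 to 0.97 for Trim56 (neutrophil), -0.27 to 0.20 for Trim59 (epithelial) and -0.055 to 0.27 for Trim8 (macrophage).

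Plain totals, the low-depth and unnamed clusters and the immune marker choice were added after the data were seen.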
